A study of Mus musculus with 18 samples.

Results

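The inserts from sequence_12001 to sequence_12500 are a stretch of a large insert pool in which most members have a spliced RNA listed beside the unspliced one. Members were the inserts of that number range with a mean of at least 20 genomic DNA (gDNA) reads over the 9 gDNA libraries, 474 of 15484 such inserts in the pool. They were grouped by whether the RNA count table lists a spliced form under the insert's name: 379 members (80.0%) had one and 95 did not. The gDNA minimum rests on these measurements, and the listing may do so too, since how forms were found is not given. The 2 groups, their level in control cells and their spliced share are therefore given as descriptions.

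INSERT-seq reads the RNA made from many DNA inserts placed at the same genomic site, so that inserts are compared with promoter and locus held fixed. Here the site lay where the antisense RNA upstream of Oct4 is made, the pluripotency factor encoded by Pou5f1 (GRCm38, the assembly of mm10, chromosome 17, 35506032 to 35510777), ahead of the red fluorescent reporter mKate2. Restrictor, built around WDR82 and ZC3H4, is known to curb early transcription by RNA polymerase II, mostly of short-lived noncoding RNAs such as upstream antisense RNAs. Splicing joins the RNA on both sides of an intron, and recognition of a 5′ splice site by the U1 particle is known to favour transcription through to the end of a gene over early termination. Cells were mouse embryonic stem cells of the CAST/129 hybrid background from a female line, and every group carried the same alleles. The genotype label names Oct4C::TagBFP2, the INSERT-seq library at Oct4ua157 and mKate2 at Oct4ua172, each tagged as 129. Control cells were given an siRNA without a target (siNT), and the others siWDR82 or siZC3H4. Each siRNA had 3 biological replicate cultures, and each culture gave 1 RNA and 1 gDNA library. The dose was 30 nM, although the labels of siWDR82 replicates 2 and 3 read 31 and 32 nM. A culture is a pool of cells, so an insert's values are means over the cells that carry it. The tables hold inserts and spike-ins and no other transcripts, so depletion of the 2 proteins and markers of the cell type were not analysed here.

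Depth was 32714145 to 53504904 reads per RNA library and 4584881 to 11510602 per gDNA library. The median member had 1417.5 to 2659 RNA reads and 167.5 to 473 gDNA reads in a library, and all 474 members passed the RNA minimum of a mean of 5 reads. The libraries have no molecular identifiers, so PCR copies of 1 molecule count as separate reads. The unit used below is the level, log2 of RNA CPM plus 0.5 minus log2 of gDNA CPM plus 0.5, with CPM as counts scaled to the insert reads of the library. A level of 0 means that an insert held the same share of RNA as of gDNA reads. The numbers in the insert names are the order the tables give, and neither the sequence nor the origin of an insert was analysed here. Values relate an insert to the whole pool, and this scale matters for the knockdowns. Per spike-in read, the siNT cultures held 26.0, 39.7 and 37.6 insert reads, the siWDR82 cultures 97.7, 46.3 and 61.8, and the siZC3H4 cultures 25.4, 59.5 and 79.5, so that siWDR82 lay above siNT and siZC3H4 overlapped with it.

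Spliced forms were not spread evenly over the range. Of the 72 members before sequence_12079, 8 had a spliced form (11.1%). Of the 396 members from sequence_12079 to sequence_12494, 371 had one (93.7%), and none of the 6 members after that did. This dense stretch is the run of numbers with the most members with a form over those without, found from the listing itself, so the shares are descriptions. Among the 500 numbers before the range, 16 of 471 inserts past the gDNA minimum had a spliced form (3.4%), and among the 500 after it 330 of 451 (73.2%). Over the whole pool the share was 14.5%. Members without a spliced form thus lay mostly before the dense stretch, and 25 of the 95 lay within it.

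Of the 500 numbers in the range, 26 were under the gDNA minimum, 17 of them with a spliced form. Just outside it stood sequence_12360, with a mean of 19.0 gDNA and 1328 RNA reads, and sequence_12269, with 17.1 gDNA reads and no RNA read in any library. Just inside stood sequence_12132, with 20.4 gDNA and 323 RNA reads, and sequence_12272, which has no spliced form, with 22.1 gDNA and 178 RNA reads. Most members had 1 spliced form (362), and 17 had 2. Of these 396 forms, 8 had no read in any RNA library (2.02%), against 403 of 2556 forms in the whole table (15.8%). The whole table also counts the forms of 157 inserts under the gDNA minimum, so the 2 shares do not rest on the same filter.

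In control cells, members with a spliced form stood far above those without. Their median level was 1.02, 0.88 and 0.96 in the 3 siNT cultures (0.95 ± 0.07, SD, n = 3), and that of members without a form was −2.07, −2.03 and −1.90 (−2.00 ± 0.09). The gap of 2.95 ± 0.12 was many times the spread between cultures. With unspliced reads alone it was 0.97 ± 0.05, and within the dense stretch, with all reads, 2.01 ± 0.16. Within the dense stretch with unspliced reads alone there was no gap beyond the spread, at −0.19, 0.24 and −0.06 in the 3 cultures (−0.004 ± 0.22). Outside the range the gap was 0.79 ± 0.09 with all reads and −0.17 ± 0.22 with unspliced reads, over 1868 inserts with and 13142 without a form. The median level of the whole pool was −0.85. Members with a form held 5.03 ± 0.38% of all insert RNA reads in siNT. The groups overlapped widely insert by insert: the 5th to 95th percentiles of the siNT level ran from −2.08 to 3.95 with a form and from −4.59 to 0.54 without. A member's level varied between siNT cultures with a median SD of 0.61 with a form and 1.05 without.

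The extremes show this range. sequence_12316 was among the highest with a spliced form, with 35578, 24935 and 34666 RNA reads against 87, 166 and 100 gDNA reads in the siNT cultures, a level of 6.10 ± 0.70 (SD, n = 3). At the other end, sequence_12226 had a form but 250, 125 and 1 RNA reads against 375, 1428 and 693 gDNA reads, a level of −4.83 ± 2.24. Its cultures thus differed from each other by more than the 2 classes did. Among members without a form, the highest was sequence_12136, with 14351, 16741 and 10581 RNA reads, all unspliced, and a level of 1.64 ± 0.34, which is above the median of the members with a form. The lowest of that class included sequence_12495, with 1, 0 and 59 RNA reads over 297, 449 and 359 gDNA reads and a level of −5.38 ± 1.12.

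The spliced share of an insert's RNA covered the full scale. It was measured in siNT for the 349 members that had a form and at least 100 RNA reads in each siNT library. The median was 72.4% with quartiles of 30.4% and 94.1%, and 115 members (33.0%) were at 90% or above while 51 were under 10%. The other members lay at 10 to 25% (27 members), 25 to 50% (40), 50 to 75% (62) and 75 to 90% (54). Outside the range, 1490 inserts chosen in the same way had a median of 12.7%, and 47.6% of them were under 10%. High shares were not particular to the range, however. Over all siNT reads of inserts with a form, the share was 79.1 ± 1.3% among the 500 numbers after the range. For members with a form it was 71.2 ± 2.7% (SD, n = 3). The median SD of a member's share between siNT cultures was 4.27 percentage points, so the order of members was well above the replicate spread, while close neighbours in it were not separated.

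sequence_12405 was spliced in 100% of its reads in each siNT culture, with 1444, 3834 and 2346 RNA reads. It was also thinly represented, with 61, 9 and 1 gDNA reads in the same cultures, so its level of 5.05 ± 2.21 was poorly set. sequence_12249 was nearest to an even split, with 1061 of 2461, 472 of 908 and 2253 of 4149 reads spliced (49.8 ± 5.9%, SD, n = 3). sequence_12022 and sequence_12055 each have a form listed but had no spliced read in siNT, among 3294, 1024 and 1439 and among 1674, 504 and 1233 RNA reads. In siZC3H4 replicate 3, sequence_12022 had 45 spliced of 5658 reads. A form in the table was thus no measure of how often it was made: 5 members with a form had no spliced read in any library.

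Across these 349 members, the spliced share correlated with the siNT level (r = 0.57, Spearman's rho = 0.63) and negatively with the level of the unspliced RNA alone (r = −0.53, rho = −0.59). These are descriptions across inserts of the same libraries, and spliced reads enter both the share and the level. The number order carried little of this within the range: over 326 pairs of members with consecutive numbers, r was 0.01 for the spliced share and 0.04 for the level.

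Where 2 forms were listed, the second could be the minor, the major or an unread form. sequence_12189 had 33751 reads of the first and 45806 of the second form over the 9 RNA libraries. For sequence_12220 the second form took 56.7, 62.8 and 61.2% of spliced reads in the siNT cultures, 56.6, 58.8 and 59.4% for siWDR82, and 49.4, 70.0 and 62.5% for siZC3H4, so the groups overlapped. sequence_12149 varied as much within a group: the second form took 19.7, 2.9 and 40.7% in siNT and 32.1, 42.8 and 50.7% with siWDR82. sequence_12412, sequence_12486 and sequence_12490 had no read of their second form.

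With depletion of WDR82 or ZC3H4 the medians of both classes lay closer together than in siNT. With siWDR82, the median level of members with a form was 0.29, 0.32 and 0.41 (0.34 ± 0.07), below all siNT cultures, and that of members without a form was −1.44, −1.23 and −1.46 (−1.38 ± 0.13), above them. With siZC3H4, the values were 0.53, 0.66 and 0.59 (0.59 ± 0.07) and −1.68, −1.88 and −1.68 (−1.75 ± 0.12), again with no overlap with siNT. The median of the whole pool was −0.46 with siWDR82 and −0.48 with siZC3H4 on this scale, against −0.85 in siNT. The gap between the classes was 1.72 ± 0.16 with siWDR82 and 2.34 ± 0.18 with siZC3H4, against 2.95 ± 0.12 with siNT. Within the dense stretch it was 1.50 ± 0.30 and 1.96 ± 0.32 against 2.01 ± 0.16, so that with siZC3H4 the difference from siNT was smaller than the SD between cultures. The higher level of the class without a form did not hold there: its 25 members of the dense stretch had median levels of −0.87, −1.27 and −0.91 in siNT, −1.11, −0.91 and −1.36 for siWDR82 and −1.29, −1.62 and −1.10 for siZC3H4, groups that overlapped. The 64 such members before the stretch had −2.23, −2.15 and −2.07, then −1.46, −1.01 and −1.38, and then −1.78, −1.81 and −1.75, with no overlap with siNT. In the edgeR fit, the class medians of log2 change differed within the dense stretch by −0.56 with siWDR82 and −0.79 with siZC3H4. In RNA reads, members with a form held 3.08 ± 0.19% of the pool with siWDR82 and 3.65 ± 0.21% with siZC3H4, while their gDNA share stayed between 2.24 and 2.28% in the 3 groups. Both comparisons share the siNT cultures, so they are not independent.

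Insert by insert, the median log2 change of RNA over gDNA in the edgeR fit was −0.88 with siWDR82 for members with a form, and 318 of 379 (83.9%) were below 0. It was 0.33 for members without one, of which 37 were below 0. It differed by place: the 64 such members before the dense stretch had a median of 0.54, and the 25 within it −0.33, with 15 below 0. The same medians with siZC3H4 were −0.60, with 291 below 0 (76.8%), and 0.09, with 46 below 0 (0.11 before the dense stretch and 0.17 within it). All tested inserts had medians of 0.06 with either siRNA. Inserts outside the range had medians of −0.44 and −0.35 with a form and of 0.15 and 0.14 without. Those with a form among the 500 numbers after the range (330) had a median of −0.65 with either siRNA. Those with a form among the 500 before it (16) had medians of 0.68 and 0.30. On the spike-in scale the sign for members with a form turns, with medians of 0.43 and 0.44, where the median of all inserts is 1.34 with siWDR82 and 1.03 with siZC3H4. Members without a form then had medians of 1.60 and 1.01. The direction of the members with a form is therefore one relative to the pool.

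Few members passed the test one by one. With siWDR82, edgeR's quasi-likelihood test with Benjamini-Hochberg adjustment over 15364 inserts found 5 falls and 1 rise among the 474 members, where 0.111% of all tested inserts fell and 0.586% rose (0.696% in either direction). All 5 falls had a spliced form, and the rise had none. With the RNA and gDNA library of each culture joined as a block, the counts were 23 falls, all with a form, and 1 rise, against 1.68% and 1.44% of all inserts (3.12% in either direction). All 6 calls of the model without the block were among these. The log2 changes of the 23 ran from −2.56 to −0.99 and their median siNT spliced share was 87.6%. On the spike-in scale no member fell and 6 rose (1.27%), 5 of them without a form, against 4.2% of all inserts that rose and 0.0195% that fell. At an unadjusted p under 0.05 the edgeR test without the block had 88 members with a form (23.2%) and 15 without (15.8%), against 12.8% of all inserts. Counted by culture levels, 92 members with a form (24.3%) lay below siNT in all 3 siWDR82 cultures, against 6.87% of all inserts, and 14 lay above, against 20.1%.

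sequence_12325 had the lowest p. RNA reads were 19641, 18544 and 14764 for siNT against 6803, 7570 and 6182 for siWDR82, over at least 652 gDNA reads in each of these cultures. Its siNT levels were 2.42, 1.68 and 1.70, those for siWDR82 0.03, 0.38 and 0.12, and those for siZC3H4 0.32, 0.90 and 1.23, so both knockdowns lay below siNT. The log2 change with siWDR82 was −2.00 ± 0.38 (SE; edgeR adjusted p = 0.0150), and with siZC3H4 it was −1.34 (adjusted p = 0.177). Its spliced share was 87.5 ± 3.3% in siNT and 79.0 ± 1.8% with siWDR82. Most of the fall was in spliced reads, which went from 17580, 15525 and 13170 to 5508, 5946 and 4792.

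sequence_12079, the first of the dense stretch, had the levels that varied least between cultures of siNT and of siWDR82 among the 5. Its level was 2.05, 2.09 and 2.09 in siNT and 0.24, 0.27 and 0.01 with siWDR82, a log2 change of −2.22 ± 0.49 (SE; edgeR adjusted p = 0.0368). With siZC3H4 the level was 0.40, 1.03 and 0.98, and the change of −1.47 passed only with the culture block (adjusted p = 0.290 without and 0.0244 with it). Its spliced share differed by less than the SD between cultures, at 96.0 ± 1.7% in siNT, 96.5 ± 1.3% with siWDR82 and 97.4 ± 1.6% with siZC3H4. Its call with siWDR82 held under 10 of 20 alternative settings. For sequence_12325 and sequence_12084 these were 14 and 13 of 20, and for sequence_12100 and sequence_12220 8 of 20 each.

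The levels of sequence_12084 were 3.45, 2.97 and 4.12 in siNT and 0.64, 1.61 and 1.91 with siWDR82 (log2 change −2.40 ± 0.49, SE; edgeR adjusted p = 0.0223). For sequence_12100 they were 2.57, 2.72 and 1.77 against 0.80, 0.62 and 0.04 (−2.10 ± 0.46; edgeR adjusted p = 0.0357). For sequence_12220 they were 1.78, 2.55 and 1.69 against 0.14, −0.30 and 0.52 (−2.13 ± 0.48; edgeR adjusted p = 0.0403). In none of the 3 did a siWDR82 culture reach the lowest siNT culture. All 5 falling members were above the class median in siNT and their mean spliced share there was 87.5 to 96.0%. The calls rested on all 3 siWDR82 cultures: without siWDR82 replicate 1 or 2 no member was called, and without replicate 3 only sequence_12220 was (edgeR adjusted p = 0.0492). Leaving out siNT replicate 1 gave 10 calls, and leaving out any 1 siZC3H4 culture gave 3. None of the 5 was called on the spike-in scale, where the log2 changes were −1.10 to −0.74.

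sequence_12027, which has no spliced form, was the member that rose with both siRNAs. It had 1 RNA read in each siNT culture over 258, 238 and 116 gDNA reads. With siWDR82 it had 103, 39 and 152 RNA reads over 113, 60 and 122 gDNA reads, and with siZC3H4 121, 114 and 204 over 158, 257 and 145. Every knockdown culture was thus well above siNT, where the 3 reads give little hold on the level. With reads scaled to the library totals, RNA over gDNA was 115 times the siNT value with siWDR82 (95% counting interval 38.8 to 559) and 126 times with siZC3H4 (42.9 to 614), which covers counting error only. The edgeR adjusted p was 0.0307 with siWDR82 and 0.0404 with siZC3H4, the latter 0.0629 with the culture block. Without siNT replicate 2, siWDR82 or siZC3H4 libraries in turn, the adjusted p was 0.0502 to 0.201 over both comparisons.

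Some other members without a form lay higher at larger counts without passing relative to the pool. sequence_12025 had siNT levels of −4.40, −5.19 and −4.06, below −2.08, −3.15 and −2.40 for siWDR82 and −3.89, −2.84 and −1.68 for siZC3H4, with a log2 change of 1.90 with siWDR82 (edgeR adjusted p = 0.204). sequence_12046 had −3.97, −4.94 and −3.88 against −2.55, −1.92 and −2.40 with siWDR82 (1.83; edgeR adjusted p = 0.204). On the spike-in scale sequence_12025 and sequence_12046 were called with siWDR82 (edgeR adjusted p = 0.0392 and 0.0225). On the other side, sequence_12064 had a level of −0.47 ± 0.10 in siNT and −2.86, −0.99 and 0.54 with siWDR82, so the groups overlapped. Of the 95 members without a form, 16 (16.8%) lay above siNT in all 3 siWDR82 cultures and 3 (3.16%) lay below, against 20.1% and 6.87% of all inserts.

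With siZC3H4, sequence_12027 was the 1 member called, where 0.325% of all inserts rose and 0.026% fell (0.351% in either direction). At an unadjusted p under 0.05 there were 54 members with a form (14.2%) and 10 without (10.5%), against 9.39% of all inserts. Outside the range there were 217 of 1863 tested inserts with a form. On the spike-in scale sequence_12027 was again the 1 member called, against 0.573% of all inserts that rose and 0.00651% that fell. With the culture block, 3 members fell and none rose, against 0.0716% and 0.325% of all inserts (0.397% in either direction). Without the block, 15 members (13 falls) were called when siNT replicate 1 was left out, 4 without siNT replicate 3, and 0 without siNT replicate 2 or any 1 knockdown culture. The 3 falls with the block were sequence_12079, sequence_12351 (log2 change −1.33, edgeR adjusted p = 0.0324 with the block and 0.535 without) and sequence_12420 (−2.07, 0.0433 and 0.0671). sequence_12420 had levels of 0.71, 1.65 and 2.18 in siNT and −0.07, −0.62 and −0.19 with siZC3H4, with spliced shares of 96.0 ± 1.1% and 95.9 ± 1.7%. In sequence_12180 the siNT levels of 2.12, 3.45 and 3.05 lay above 1.32, 0.43 and 1.74 for siWDR82 and above 1.34, 1.15 and 0.87 for siZC3H4 (edgeR adjusted p = 0.0604 and 0.0867). With the culture block sequence_12180 was called with siWDR82 (log2 change −2.00, edgeR adjusted p = 0.0266) and not with siZC3H4. Counted by culture levels, 52 members with a form (13.7%) lay below siNT in all 3 siZC3H4 cultures, against 5.18% of all inserts, and 19 lay above, against 18.1%.

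Some members with a form and little spliced RNA lay higher in the knockdowns. sequence_12131 had levels of −4.37, −1.56 and −2.65 in siNT and −0.53, −0.34 and 0.45 with siZC3H4 (log2 change 2.56; edgeR adjusted p = 0.191). It had 1 spliced read in all siNT libraries together, and 56, 156 and 64 with siWDR82 and 74, 53 and 180 with siZC3H4. sequence_12482 had levels of −3.67, −1.68 and −2.58 in siNT and −0.39, −0.55 and −0.45 with siWDR82 (1.73; edgeR adjusted p = 0.220). In neither of these comparisons did the groups overlap, and neither change passed the test relative to the pool. On the spike-in scale sequence_12482 was called with siWDR82 (log2 change 2.82, edgeR adjusted p = 0.0487).

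Relative to the pool, the response differed along the spliced share. Members over 90% spliced in siNT (117) had median log2 changes of −1.23 with siWDR82 and −1.01 with siZC3H4, and 109 and 105 of them were below 0. Those at 10 to 90% (204) had −0.82 and −0.51. Those under 10% (58) had −0.23 and 0.17. Because the same siNT libraries set the share and the change, the classes were also taken from 1 siNT culture in turn and the level change measured against the other 2. The medians were then −0.99 ± 0.12 with siWDR82 and −0.78 ± 0.11 with siZC3H4 over 90%, −0.55 ± 0.11 and −0.23 ± 0.13 at 10 to 90%, and 0.18 ± 0.10 and 0.33 ± 0.09 under 10% (SD over 3 knockdown cultures). A siNT culture set against the others in the same way gave −0.53 to 0.03, 0.001 to 0.21 and −0.04 to 0.41. The means of the class under 10% were thus within what siNT cultures showed among themselves, while siZC3H4 replicate 1, at 0.44, lay above it.

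The siNT level went along with the spliced share: its median was 2.22 over 90%, 0.82 at 10 to 90% and −0.66 under 10%. Members were therefore also compared within bands of the level, set in 1 siNT culture and measured against the others. In the band from 0 to 1, the median change with siWDR82 was −0.50 ± 0.10 for 84 to 100 members with a form and 0.31 ± 0.15 for 7 to 12 without. In the band from −1 to 0 it was −0.24 ± 0.19 and 0.47 ± 0.17. With siZC3H4 the same bands gave −0.16 ± 0.15 against 0.10 ± 0.19, and 0.06 ± 0.12 against −0.09 ± 0.20, the latter a difference within the spread between cultures. In the band above 1, siZC3H4 gave −0.60 ± 0.10 with a form and 0.23 ± 0.21 for 4 to 6 members without. In no band below 0 was the siZC3H4 median with a form the lower one. A siNT culture set against the others gave −0.23 to 0.26 with and −0.31 to 0.50 without a form in the band from 0 to 1, and −0.17 to 0.20 and −0.13 to 0.66 in the band from −1 to 0. The siWDR82 means without a form lay within these ranges, and those with a form lay below them. In these bands the siZC3H4 means of both classes lay within the ranges. Outside the range, the band from 0 to 1 gave −0.35 ± 0.07 with and 0.08 ± 0.04 without a form with siWDR82. With siZC3H4 it gave −0.22 ± 0.06 and 0.16 ± 0.05 there, and the band from −1 to 0 gave 0.18 ± 0.07 and 0.44 ± 0.04. With siWDR82, members with a form had a median below that of members without one in each of the 5 bands, inside and outside the range, though the bands below −2 and above 1 have no outer bound, so levels within them were not matched.

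The spliced share of all reads of members with a form was 73.4, 68.2 and 72.1% in the siNT cultures, 61.2, 59.6 and 62.4% for siWDR82, and 60.8, 65.5 and 64.2% for siZC3H4. All knockdown cultures lay below all siNT cultures, and the means differed by −10.2 and −7.71 percentage points. Outside the range the mean shares were 35.5% in siNT, 26.6% with siWDR82 and 30.1% with siZC3H4. Among the 500 numbers after the range they were 79.1, 70.1 and 74.1%. The difference in members was then split into the mix of inserts and the shares within inserts. With each insert held at its siNT share and only the read numbers of the inserts taken from each culture, the share was 64.8 ± 0.94% with siWDR82 and 65.7 ± 1.44% with siZC3H4, a difference from siNT of −6.59 and −5.68 points. The rest, which this split counts as within inserts, was −3.56 and −2.03 points. The SD between cultures of the whole difference was 3.08 points with siWDR82 and 3.65 with siZC3H4. The siNT shares came from the same siNT reads, so the split is a description, and the cause was not tested.

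Within single members the difference was smaller. Over 332 members with at least 100 RNA reads in every library, the median change of the spliced share was −2.21 points with siWDR82, with 225 lower and 103 higher, and −0.70 points with siZC3H4, with 202 lower and 126 higher. All 3 siWDR82 cultures lay below siNT in 51 of them (15.4%) and above in 13, against 8.38% and 4.02% of 1718 such inserts in the pool. For siZC3H4 these were 28 (8.4%) and 14, against 5.06% and 4.19%. In edgeR's test of spliced over unspliced reads, none of 343 members passed with either siRNA, against 0.131% of 1527 inserts with siWDR82 and 0.196% with siZC3H4. At an unadjusted p under 0.05 there were 31 members (9.04%) with siWDR82 and 20 (5.83%) with siZC3H4, near the 8.19% and 6.94% of all 1527. The median log2 change of the ratio was −0.42 with siWDR82 (69.1% of members below 0) and −0.15 with siZC3H4 (60.6%), against −0.34 and −0.07 over all 1527. The median SE of a member's change was 0.97 with either siRNA, so the test could not tell changes of this size in 1 member from 0.

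sequence_12208 had the lowest spliced share with siWDR82 relative to siNT. Its spliced reads were 563 of 739, 120 of 121 and 411 of 688 in siNT (78.4 ± 19.8%), 39 of 757, 145 of 615 and 60 of 624 with siWDR82 (12.8 ± 9.6%), and 214 of 611, 245 of 1162 and 109 of 290 with siZC3H4 (31.2 ± 8.9%). All cultures of both knockdowns lay below all siNT cultures, while the knockdowns overlapped with each other. The ratio did not pass the test (log2 change −4.09 with siWDR82, edgeR adjusted p = 0.516). sequence_12472 moved the other way, with 2 of 1597, 2 of 947 and 132 of 596 reads spliced in siNT and 423 of 1025, 251 of 499 and 129 of 575 with siZC3H4. Its siNT replicate 3 (22.1%) nearly reached the lowest siZC3H4 culture (22.4%).

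Unspliced RNA alone showed the same side as all RNA. The unspliced level of members with a form had a median of −1.03 ± 0.04 in siNT, −1.48 ± 0.15 with siWDR82 and −1.29 ± 0.10 with siZC3H4. In the edgeR fit on unspliced reads, 374 of these members were tested, with median log2 changes of −0.65 and −0.47, and 1 passed with each siRNA, as a rise, against rises in 0.561% and 0.326% of all 15330 inserts in that fit.

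Along the numbers the response was broad within the dense stretch, but it was not seen before it. The 8 members with a form before the stretch had a median log2 change of 0.16 with siWDR82, with 3 below 0. With siZC3H4 it was 0.48, with 1 below 0. Within the stretch the medians of the 371 members with a form were −0.89 and −0.62. The first step below pools members from before and within the stretch. In steps of 100 numbers, the members with a form (28, 88, 84, 89 and 90) had median log2 changes with siWDR82 of −0.54, −0.79, −0.99, −0.94 and −0.81, and with siZC3H4 of −0.29, −0.41, −0.69, −0.71 and −0.69. The spliced share of their reads in siNT was 64.7, 64.4, 70.2, 77.1 and 77.0%. With siWDR82 it was 39.3, 52.5, 63.1, 69.3 and 66.8%, lower in each step. The first step held 3 of the 5 falls called. Consecutive members with a form did not share their response beyond this: r was −0.08 with siWDR82 and 0.05 with siZC3H4 over 326 pairs. The 17 members with 2 forms had median changes of −0.76 and −0.40, and the 6 members after the dense stretch, none with a form, had −0.60 and −2.44. These 6 had few reads, with a median of 1 to 69.5 RNA reads in a library. Their mean summed RNA share was 0.00072% in siNT and 0.00084% with siZC3H4, and their mean gDNA share 0.0107% and 0.0207%. By culture the gDNA share was 0.0135, 0.0113 and 0.0073% in siNT and 0.0190, 0.0303 and 0.0127% with siZC3H4, so the groups overlapped. The −2.44 thus stood beside a higher mean gDNA share and no lower mean RNA share.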

How the data were processed

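The authors deposited unnormalized counts of reads for each reference sequence in an RNA table and a gDNA table. The submitters' processing notes name SAMtools, STAR, Bowtie2 2.3.4.3 and cutadapt 1.14, with mm10 as the build. The sources used here do not say how spliced forms were found. The tables list 16461 inserts and 2556 spliced forms. RNA of an insert was its unspliced plus spliced counts. The test covered the 15364 inserts whose mean over 9 libraries reached 20 for gDNA and 5 for RNA, with edgeR 4.0.16 (R 4.3.3) quasi-likelihood on 6 group means. It contrasted the RNA to gDNA ratio of a knockdown with that of siNT, with TMM within RNA and within gDNA and a Benjamini-Hochberg threshold of 0.05. The ratio of spliced to unspliced reads was tested in the 1527 inserts averaging 20 or more of both.

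Members, classes and lists were chosen with earlier results of these data known. Named members are, by a fixed rule, those called, those of lowest p per class, siRNA and direction, the extremes of level, spliced share and its change, those with 2 forms and most spliced reads, and the neighbours of the gDNA minimum. sequence_12351, sequence_12412, sequence_12486 and sequence_12490 fall outside it and were chosen after their values were seen.

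The deviations of a culture's RNA and gDNA library from their groups correlated across inserts in all 9 cultures (r from 0.29 to 0.47), so the libraries are pairs, and the fit with culture as a block is printed where it changes a call. Replicates were not duplicates of 1 library by a chi-square test of their counts. Scripts were tested on simulated data. Alternatives covered scaling, filters, DESeq2 1.42.0, limma 3.58.1 on log ratios, unspliced reads, blocks and each replicate left out.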

Additional observations from a re-analysis of the deposited data

How the results depend on the processing

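Calls among members (6 with siWDR82, 1 with siZC3H4) changed most. With siWDR82 there were 3 under library totals, 2 with unspliced reads alone, 24 with the culture as a replicate block, 2 without inserts of 3 or fewer siNT RNA reads, 26 with DESeq2 (23 falls) and 0 with limma on log ratios (159 at an unadjusted p under 0.05); leaving out 1 culture gave 0 to 10. With siZC3H4 there were 0 at a gDNA minimum of 100, 2 with unspliced reads alone, 3 with the culture block, 0 with the replicate number as a block, 0 without inserts of 3 or fewer siNT RNA reads, 11 with DESeq2 (7 falls) and 0 with limma (96 unadjusted); leaving out 1 culture gave 0 to 15, the most without siNT replicate 1. The replicate number marks no pairing, since same-numbered cultures correlated above 0.1 in 2 of 9 cases. The counts by direction changed too, as members gained or lost a call. In place of 1 rise and 5 falls with siWDR82 there were 6 rises and 0 falls with spike-in scaling and 2 rises with unspliced reads alone. With siZC3H4, 3 falls of other members stood in place of the 1 rise with the culture block. No call of the main fit turned its sign under an alternative.

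The median change with a form minus that without (−1.21 with siWDR82, −0.68 with siZC3H4) was −0.96 with unspliced reads alone and −0.56 within the dense stretch with siWDR82, and −0.40 at a gDNA minimum of 100 with siZC3H4. Leaving out 1 culture gave −1.29 to −0.96 with siWDR82 and −0.78 to −0.46 with siZC3H4. The siNT gap of 2.95 was 2.45 with a pseudocount of 2 CPM, 0.97 with unspliced reads alone and 2.01 within the dense stretch. As a median over members, the change of the spliced share was −2.21 points instead of −10.2 with siWDR82 and −0.70 instead of −7.71 with siZC3H4. Calls of spliced over unspliced reads, 0 with each siRNA, were 0 to 2 with siWDR82 and 0 to 3 with siZC3H4 when 1 culture was left out. Of the values of these results under alternatives, 76 stayed within the limits set and 49 moved, where counts of calls were compared by total and not by direction; the cause was not tested. Depth limits members with few siNT reads: 10 had 3 or fewer RNA reads in siNT, 8 of them without a form. The 7 calls of 6 members held under 71 alternatives and were lost under 67.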
